A study of Mus musculus with 6 samples.

Results

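Replication-dependent histone genes were described in lymphoma B cells labelled PRDM15 KO and wild type. The genes were taken by name, as every symbol in the deposited table that begins with Hist1h, Hist2h, Hist3h or Hist4h. That gave 54 genes of 21448, of which 49 averaged 1 or more across the 6 libraries, as did 10533 genes of the whole table. By histone type there were 6 H1, 16 H2A, 14 H2B, 6 H3 and 12 H4 genes, and 5, 14, 12, 6 and 12 of them reached that mean. By cluster, 39 of 43 Hist1 genes on chromosome 13, 7 of 8 Hist2 genes on chromosome 3 and 3 of 3 Hist3 genes on chromosome 11 reached it, and the table has no symbol that begins with Hist4h.

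All 6 libraries came from cultured primary lymphoma cells, grown with IL7. The mice carried the Eµ-Myc transgene, Myc under an immunoglobulin heavy chain enhancer that is active in the B lineage, so every library carries it. The PRDM15 KO group and the wild type group have 3 libraries each, called biological replicates, with no word on how many mice they came from. The protocol has cells exposed for 24 hours to 4-hydroxytamoxifen (OHT, 50 nM), which induces the deletion, or to ethanol as the control, with collection 3 days after. Library names do not say which cells received OHT; if OHT went with the deletion, its own effect and that of the deletion cannot be told apart. PRDM15 is a PR domain protein with zinc fingers, and the comparison asks which transcripts differ after its deletion.

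In dividing cells, histone proteins are needed in bulk when DNA is copied, and their genes sit in clusters of many near-identical copies that are switched on together in S phase. H2A, H2B, H3 and H4 form the core around which nucleosomal DNA is wrapped, and H1 is the linker histone that binds where the DNA enters and leaves. Typical transcripts of these genes have no poly(A) tail: they end just after a conserved stem-loop, which the stem-loop binding protein SLBP holds through processing, translation and decay. Some members have annotated transcripts far longer than their coding sequence, such as Hist1h2ac (2482 against 393 bases) and Hist2h2be (2620 against 381). Whether reads of a member came from transcripts with a tail was not tested.

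Because that stem-loop marks the family, it was searched for in the annotated transcripts (GENCODE M21, GRCm38) as a 6-base arm that begins with GG, a loop of TTTN, and the perfect complement of the arm. It was found in 34 of the 49 genes and in 32 of 21848 other protein-coding genes (0.146%). Annotated transcripts of 43 of the 49 are more than 30 bases longer than the coding sequence, counting both ends together. How much of that lies after the coding sequence, where the stem-loop would be, was not measured. Hist3h2bb-ps, with no annotated coding sequence, is among the 43. A missing match says only that these letters are not in the annotation. The 6 forms found over all 54 members are given as DNA letters, 5′ to 3′, with the 4-base loop in capitals.
Form in 20 genes of H1, H2A, H2B and H3: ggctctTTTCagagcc
Form in 6 genes of H4: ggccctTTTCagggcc
Form in 5 genes of H1, H2B and H3: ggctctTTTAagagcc
Form in Hist1h4i and Hist2h4: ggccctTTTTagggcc
Form in Hist1h4b and Hist1h4j: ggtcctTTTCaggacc
Form in Hist2h2ac: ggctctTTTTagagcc
The H4 genes used arms of their own, and the other 4 types shared a single arm.

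Values are read counts per gene scaled by an effective library size, called CPM here, and are not divided by gene length. The libraries held 28852951 to 41204788 assigned reads in PRDM15 KO and 38581112 to 47255421 in wild type. Prdm15 itself had 40.2, 40.9 and 39.2 in PRDM15 KO replicates 1, 2 and 3, against 29.2, 47.3 and 41.3 in wild type replicates 1, 2 and 3 (log2 change 0.06, limma adjusted p = 0.834). The groups overlapped, so the gene's total reads do not show the deletion; the deleted stretch is not given in the sources used here, reads outside it would still count, and PRDM15 KO is used here as the libraries' label. B lineage markers were present at like summed levels (8 of 8 markers, 1531 to 2106 in PRDM15 KO and 1560.3 to 2065 in wild type). Single markers had log2 changes from -0.63 to 0.24, 5 of 8 negative, with a median of -0.16 against -0.03 over all tested genes. At an unadjusted limma p under 0.05, 2 of the 8 were lower, against 13.6% of all tested genes. After adjustment 0 passed. Markers of myeloid cells (15 of 15 measured) summed to 227, 2512 and 1366 in PRDM15 KO replicates 1, 2 and 3, against 243, 297 and 261 in wild type replicates 1, 2 and 3, so PRDM15 KO replicates 2 and 3 stood apart. In bulk RNA, fewer cells of a type and less RNA per cell cannot be told apart.

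Histone transcripts of all 5 types were lower in the PRDM15 KO libraries, and on the deposited scale their summed level was 23.0% to 27.6% lower within pairs. The values of all 54 genes added up to 14198, 17919 and 18719 in PRDM15 KO replicates 1, 2 and 3, against 19611, 23286 and 24676 in wild type replicates 1, 2 and 3. On this scale every PRDM15 KO library lay below every wild type library, and the sum was lower by 27.6%, 23.0% and 24.1% in pairs 1, 2 and 3, where a pair is the PRDM15 KO and the wild type library of the same replicate number. As a share of all assigned reads, histone reads made up 1.48%, 1.78% and 1.92% in PRDM15 KO replicates 1, 2 and 3, against 1.90%, 2.29% and 2.44% in wild type replicates 1, 2 and 3. On that scale the groups overlapped, PRDM15 KO replicate 3 lying just above wild type replicate 1. Each pair was still lower in PRDM15 KO, by like proportions, and the larger drop of pair 1 did not appear there. The mean log2 change of the sum was -0.41 ± 0.046 (SD, n = 3 pairs).

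Gene by gene, 48 of the 49 were lower in PRDM15 KO in all 3 pairs, where 29.9% of all tested genes were. Tested with limma on log2(value + 1) with the replicate number as a block, two-sided and adjusted over all 10533 genes at a threshold of 0.05, 12 of the 49 fell and 0 rose. Over all tested genes 92 were called (0.873%), 78 of them lower (0.741%), and the histone genes made up 12 of those 78 (15.4%). After quantile normalization, 96 of the 129 genes called were lower. At an unadjusted p under 0.05, 45 of the 49 were lower, against 13.6% of all tested genes. The median log2 change was -0.41 over the 49 and -0.03 over all tested genes. It was -0.48, -0.39 and -0.38 in pairs 1, 2 and 3, against -0.05, -0.00 and -0.04 for all genes, and 44 of the 49 genes lay between -0.6 and -0.2. The genes that fell and those that missed the threshold overlapped in the size of their difference.

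**Figure D1:**
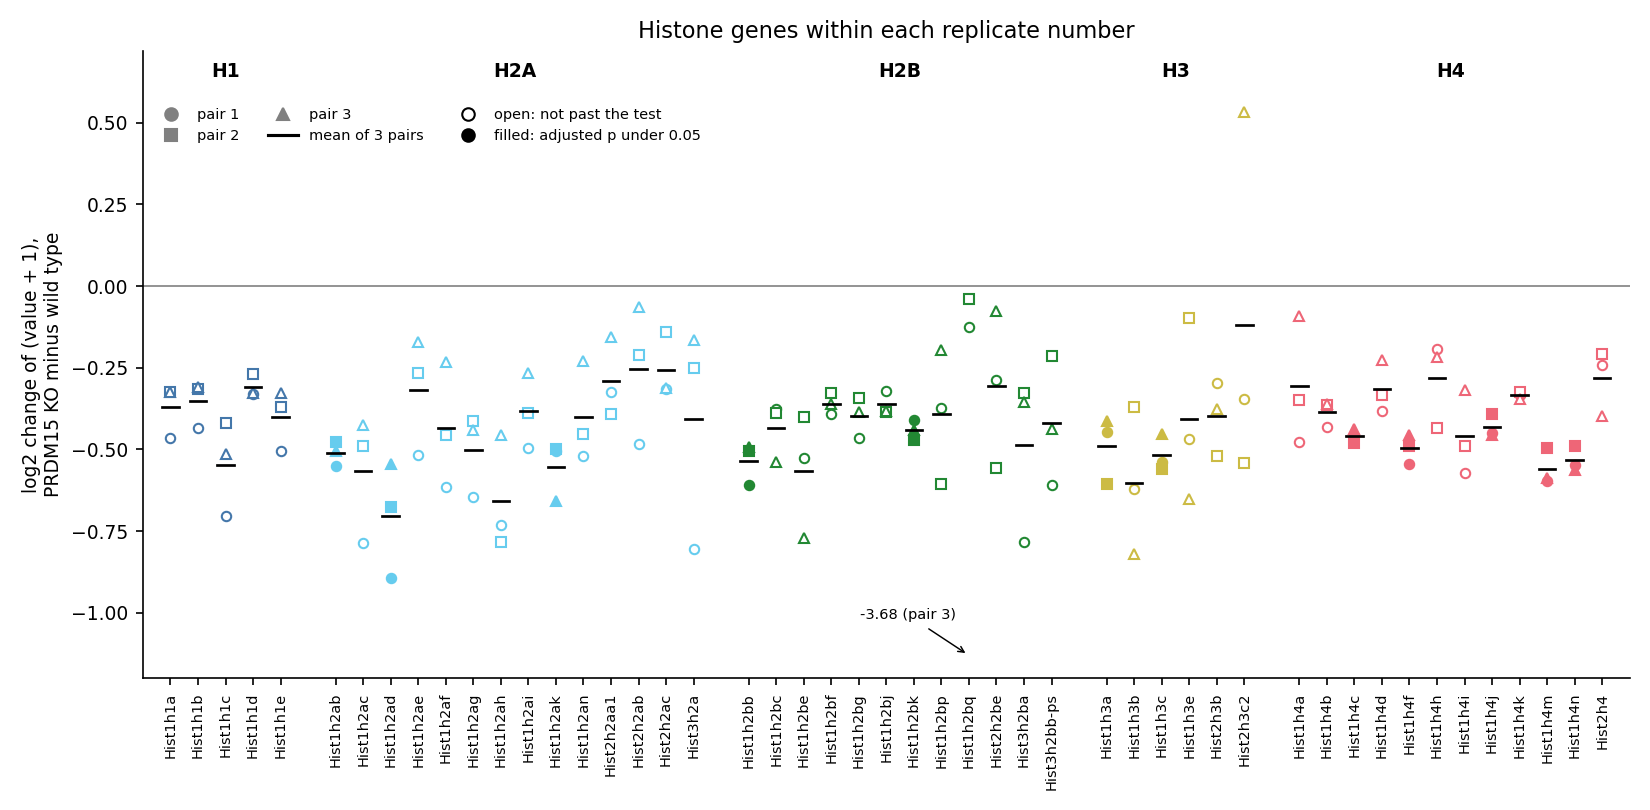
Log2 change of (value + 1), PRDM15 KO minus wild type, on the vertical axis, for each of the 49 histone genes on the horizontal axis, grouped by histone type. Circles, squares and triangles are pairs 1, 2 and 3, bars are the mean of the 3 pairs, and filled symbols mark the 12 genes with a limma adjusted p under 0.05. Nearly all points lie below 0; the exception above it is Hist2h3c2 in pair 3 (0.53), and Hist1h2bq in pair 3 (-3.68) is off the scale.

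How many genes passed depended on the fit far more than the size of the difference did. Without the replicate block, limma called 0 of the 49 (0.00949% of all genes), with 21 at an unadjusted p under 0.05. On whole reads recovered from the values, edgeR's quasi-likelihood test with the block called 3 of the 49, all lower (0.370% of all genes, 0.323% lower), namely Hist1h4n, Hist1h4m and Hist1h2ab, and DESeq2 with the block called 41, all lower (7.01% of all genes, 3.99% lower), among them all 12. Without replicate 1 of both groups limma called 35 of the 49, with far more calls over all genes than in the fit with all replicates (0.873%). Without replicate 2 or replicate 3 it called 0 of the 49 and no other gene. In those 3 fits 45, 42 and 45 had an unadjusted p under 0.05, and the share over all genes at that p is not given here. The median log2 change stayed between -0.44 and -0.37 over those 3 fits. In 23 of the 49 genes all PRDM15 KO values lay below all wild type values, which held for 6.29% of all tested genes. In pair 1 the summed myeloid markers were at 227 in PRDM15 KO and 243 in wild type, and the histone median there was -0.48. The scaling enlarges the difference of every pair, and most that of pair 1. In pair 1 the effective library size was 1.04 times the assigned reads in PRDM15 KO and 0.970 times in wild type. The same figures were 0.993 and 0.984 in pair 2, and 1.02 and 0.989 in pair 3. Pair 1 is 1 pair of libraries, and the part of myeloid cells in the histone result was not tested.

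Of the 5 tested H1 genes, which encode the linker histone, 0 passed the limma test and 5 were lower in all 3 pairs. Their summed value was 4846, 6224 and 6301 in PRDM15 KO replicates 1, 2 and 3, against 6824, 7866 and 8073 in wild type replicates 1, 2 and 3. The groups did not overlap, and the log2 change of the sum was -0.40 ± 0.085 (SD, n = 3 pairs); under quantile normalization it was -0.25. Hist1h1e had 1291, 1287 and 1268 in PRDM15 KO replicates 1, 2 and 3, against 1831, 1662 and 1590.4 in wild type replicates 1, 2 and 3. The PRDM15 KO values were close together and all below wild type (log2 change -0.40, SE 0.067, limma adjusted p = 0.0799). Hist1h1a had 941, 1511 and 1449 in PRDM15 KO and 1299, 1891 and 1815 in wild type. Hist1h1d had 897, 1260.3 and 1380.5 in PRDM15 KO and 1129, 1518 and 1731 in wild type. In both genes replicate 1 was low in each group and the groups overlapped (log2 change -0.37, SE 0.065, limma adjusted p = 0.0852 for Hist1h1a, and log2 change -0.31, SE 0.058, limma adjusted p = 0.102 for Hist1h1d). The remaining H1 genes, named after their values were seen, were Hist1h1c and Hist1h1b, and neither overlapped between groups. Hist1h1c had 877, 1068 and 1103 in PRDM15 KO replicates 1, 2 and 3, against 1430.2, 1430.0 and 1574 in wild type replicates 1, 2 and 3, with log2 changes of -0.70, -0.42 and -0.51 in pairs 1, 2 and 3. It was the lowest H1 gene relative to wild type (log2 change -0.55, SE 0.077, limma adjusted p = 0.0569), and Hist1h1b had a log2 change of -0.35 (SE 0.061, limma adjusted p = 0.0840). All 5 had an unadjusted limma p under 0.05; edgeR called 0 and DESeq2 called 5.

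Of the 14 tested H2A genes, which encode the core histone that pairs with H2B, 3 fell: Hist1h2ab, Hist1h2ad and Hist1h2ak. The H2A sum was 1512, 1896 and 2023 in PRDM15 KO replicates 1, 2 and 3, against 2163, 2511 and 2701 in wild type replicates 1, 2 and 3, with no overlap (log2 change -0.45 ± 0.061, SD, n = 3 pairs). Hist1h2ab had 177, 252 and 297 in PRDM15 KO replicates 1, 2 and 3, against 260.3, 351 and 421 in wild type replicates 1, 2 and 3. Replicate 1 was lowest in both groups, so the groups overlapped, but the pair differences of -0.55, -0.48 and -0.50 were nearly equal (log2 change -0.51, SE 0.048, limma adjusted p = 0.0330). Hist1h2ak, the most abundant H2A transcript per coding length, had 341, 409 and 435 in PRDM15 KO and 484, 578 and 686 in wild type. All its PRDM15 KO values lay below wild type (log2 change -0.55, SE 0.058, limma adjusted p = 0.0414). Hist1h2ad was far less abundant, with 24.3, 36.3 and 40.2 in PRDM15 KO and 46.0, 58.7 and 59.1 in wild type. It had the largest difference of the 12, its PRDM15 KO mean being 61.6% of the wild type mean, and the groups did not overlap (log2 change -0.70, SE 0.084, limma adjusted p = 0.0430). The 11 others had log2 changes between -0.66 and -0.25.

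Of the 12 tested H2B genes, which encode the partner of H2A in the core, 2 fell: Hist1h2bb and Hist1h2bk. The H2B sum was 2144, 3077 and 3213 in PRDM15 KO replicates 1, 2 and 3, against 3009, 4104 and 4513 in wild type replicates 1, 2 and 3 (log2 change -0.46 ± 0.043, SD, n = 3 pairs). PRDM15 KO replicates 2 and 3 reached above wild type replicate 1, so here the sums overlapped. Hist1h2bb had 552, 787 and 889.8 in PRDM15 KO replicates 1, 2 and 3, against 843, 1117 and 1252 in wild type replicates 1, 2 and 3. It was the most abundant H2B transcript per coding length, and its PRDM15 KO mean was 69.4% of the wild type mean (log2 change -0.54, SE 0.058, limma adjusted p = 0.0414). Hist1h2bk had 163, 241 and 261 in PRDM15 KO and 217, 335 and 355 in wild type, with replicate 1 lowest in both (log2 change -0.44, SE 0.048, limma adjusted p = 0.0414). Hist1h2bg had 449, 599 and 661 in PRDM15 KO and 621, 759 and 864 in wild type, and Hist1h2be had 348, 451 and 388 in PRDM15 KO and 501, 596 and 663 in wild type. Hist1h2be did not overlap between groups and Hist1h2bg did, and neither passed (limma adjusted p = 0.0590 for Hist1h2be and 0.0554 for Hist1h2bg).

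Of the 6 tested H3 genes, whose product carries most of the well-known methylation marks of chromatin, 2 fell: Hist1h3a and Hist1h3c. The H3 sum was 1143, 1447 and 1518 in PRDM15 KO replicates 1, 2 and 3, against 1624, 1878 and 2272 in wild type replicates 1, 2 and 3, with no overlap (log2 change -0.49 ± 0.10, SD, n = 3 pairs). Hist1h3c had 300.1, 349.5 and 409 in PRDM15 KO replicates 1, 2 and 3, against 436, 516 and 561 in wild type replicates 1, 2 and 3. Each PRDM15 KO library was below each wild type library (log2 change -0.52, SE 0.052, limma adjusted p = 0.0387). Hist1h3a had 129.8, 205 and 226 in PRDM15 KO and 177, 313 and 301 in wild type, with replicate 1 low in both groups (log2 change -0.49, SE 0.059, limma adjusted p = 0.0445). The abundant Hist1h3e had 355, 525 and 462 in PRDM15 KO and 492, 562 and 726 in wild type. Its pair differences were uneven, -0.47, -0.10 and -0.65, and it missed the threshold (log2 change -0.41, SE 0.11, limma adjusted p = 0.159). Hist1h3b had 251, 276 and 317 in PRDM15 KO and 387, 357 and 561 in wild type, with no overlap and a wild type replicate 3 well above the other libraries (log2 change -0.60, SE 0.094, limma adjusted p = 0.0670).

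Of the 12 tested H4 genes, whose product pairs with H3, 5 fell: Hist1h4c, Hist1h4f, Hist1h4j, Hist1h4m and Hist1h4n. The H4 sum was 4554, 5276 and 5665 in PRDM15 KO replicates 1, 2 and 3, against 5992, 6927 and 7117 in wild type replicates 1, 2 and 3, with no overlap (log2 change -0.37 ± 0.038, SD, n = 3 pairs). Hist1h4n had 105, 108 and 111 in PRDM15 KO replicates 1, 2 and 3, against 154, 152 and 164 in wild type replicates 1, 2 and 3. The libraries of each group were close together and the groups far apart, and it had the smallest p of the family (log2 change -0.53, SE 0.049, limma adjusted p = 0.0313). Hist1h4m had 39.0, 120.1 and 122 in PRDM15 KO and 59.4, 169.7 and 184 in wild type. Replicate 1 was far under the other libraries in both groups, which overlapped, and the pair differences were -0.60, -0.50 and -0.59 (log2 change -0.56, SE 0.052, limma adjusted p = 0.0318). Hist1h4f had 511, 648 and 668 in PRDM15 KO and 746, 909.8 and 917 in wild type, with no overlap (log2 change -0.50, SE 0.054, limma adjusted p = 0.0414). Hist1h4c had 458, 628 and 687 in PRDM15 KO and 629, 877 and 932 in wild type (log2 change -0.46, SE 0.051, limma adjusted p = 0.0416). Hist1h4j had 149, 254 and 254 in PRDM15 KO and 204, 334 and 348 in wild type (log2 change -0.43, SE 0.048, limma adjusted p = 0.0414). In Hist1h4c and Hist1h4j the groups overlapped, with replicate 1 lowest in both. Hist1h4d, the most abundant member per coding length but not per annotated transcript length, had 1222, 1282 and 1344 in PRDM15 KO and 1592, 1617 and 1573 in wild type. The groups did not overlap but the gene missed the threshold (log2 change -0.31, SE 0.065, limma adjusted p = 0.115), and so did Hist1h4h (638, 649.6 and 729 in PRDM15 KO, 729.6, 878 and 847 in wild type; limma adjusted p = 0.142).

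**Figure D2:**
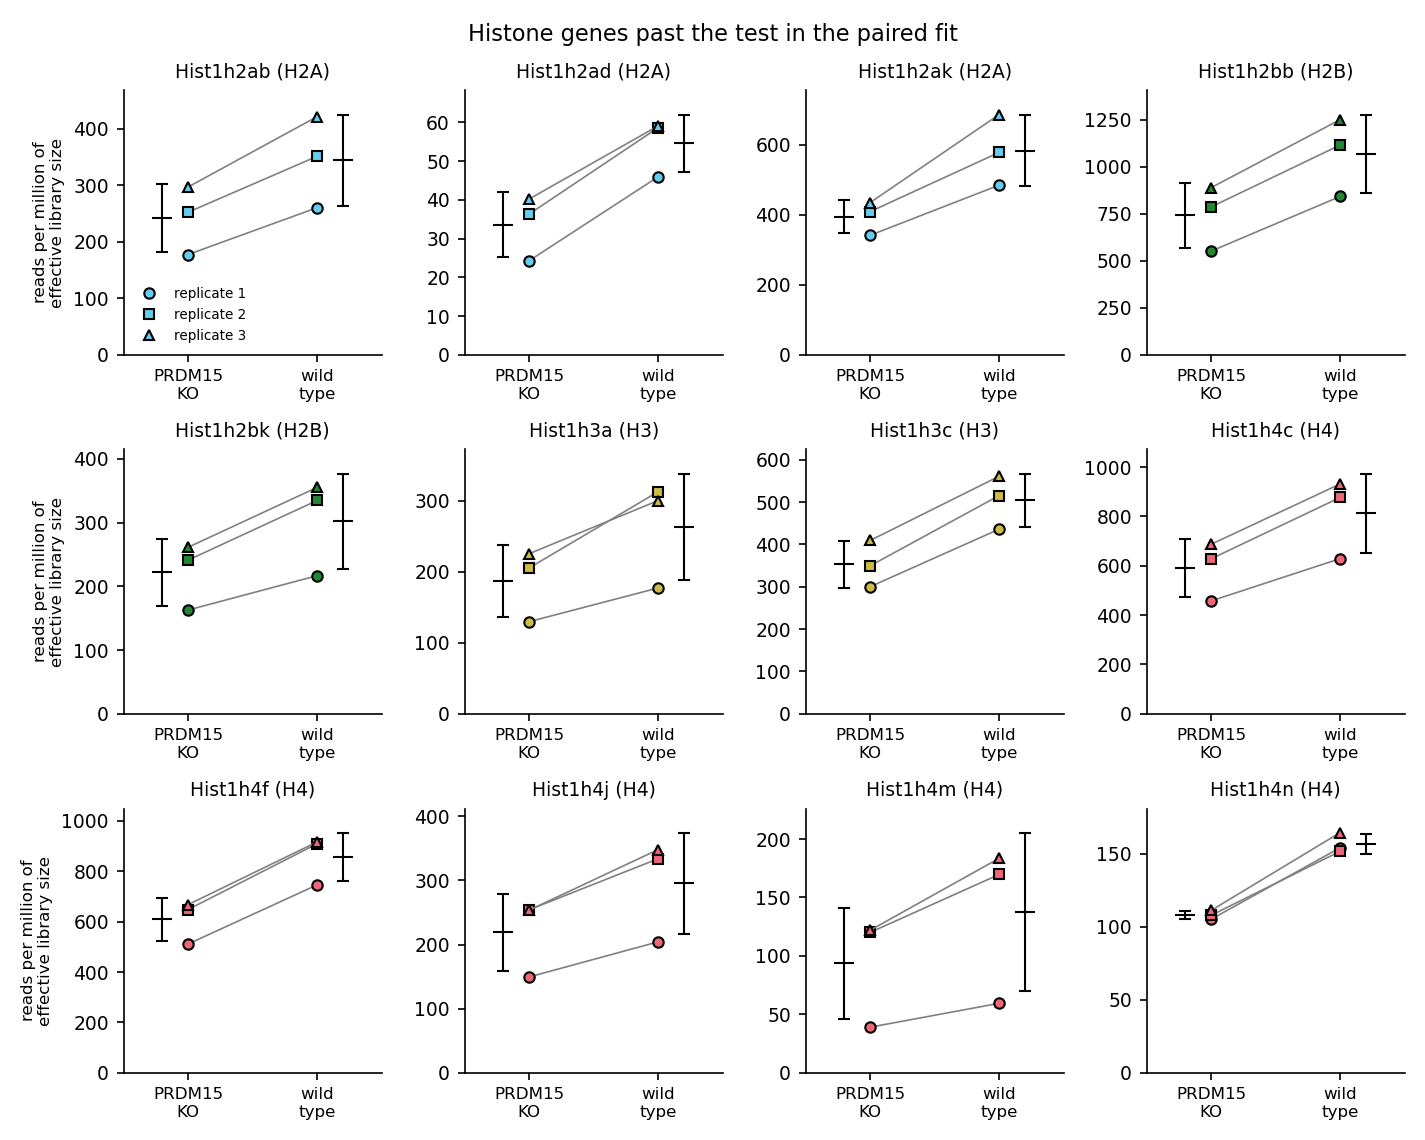
Value in CPM, on axes that start at 0, for the 12 histone genes past the limma test, in PRDM15 KO (left) and wild type (right). Circles, squares and triangles are replicates 1, 2 and 3, lines join libraries of the same number, and bars give the mean and SD of 3 libraries. Each line slopes up to wild type, and replicate 1 is the lowest library of both groups, except in Hist1h4n, where wild type replicate 2 is lowest in its group.

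Per kilobase of coding sequence, the summed mean values were highest for H4, at 16554 in PRDM15 KO and 21406 in wild type. H1 had 8834 in PRDM15 KO and 11585 in wild type, and H2B had 7274 in PRDM15 KO and 10034 in wild type. H2A had 4613 in PRDM15 KO and 6264 in wild type, and H3 had 3331 in PRDM15 KO and 4684 in wild type. That order, H4, H1, H2B, H2A and H3, was the same in both groups. Per kilobase of annotated transcript H1 and H2B were close together, at 4591 and 4437 in PRDM15 KO and 6005 and 6059 in wild type, so their order depends on the length used. On the coding scale the ratio of PRDM15 KO to wild type ran from 0.711 for H3 to 0.773 for H4; differences between types were not tested.

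**Figure D3:**
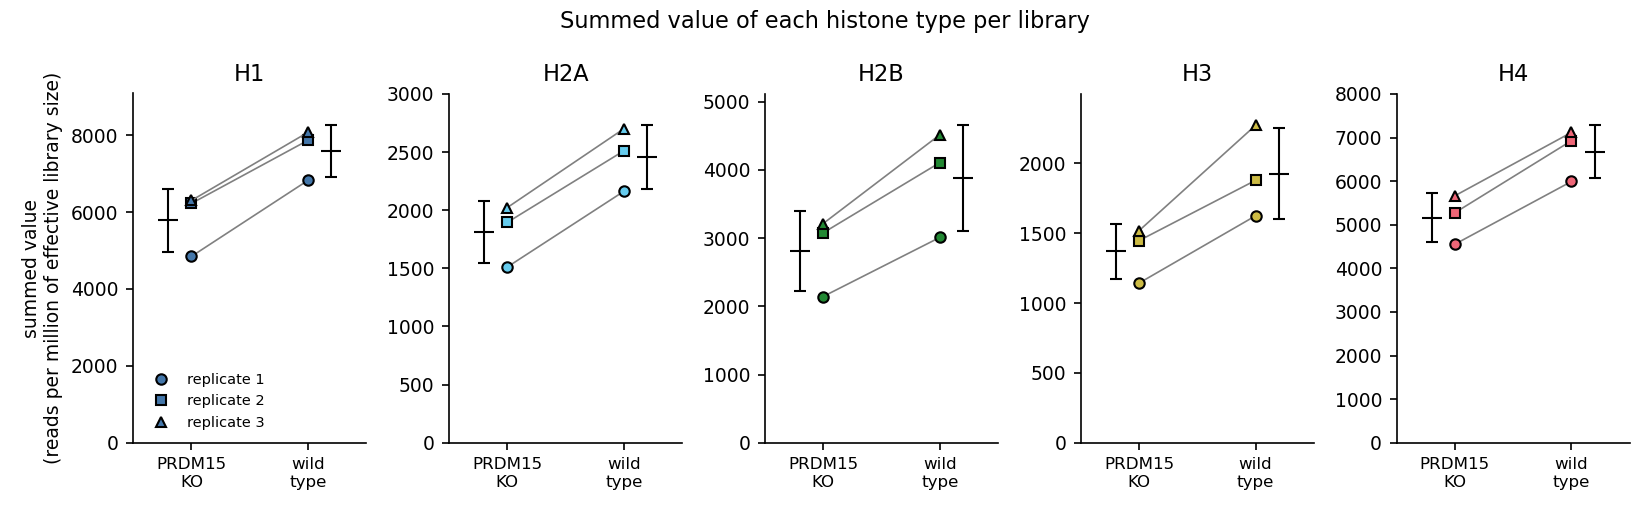
Summed value in CPM of all genes of each histone type, in PRDM15 KO (left of each panel) and wild type (right). Circles, squares and triangles are replicates 1, 2 and 3, lines join libraries of the same number, and bars give the mean and SD of 3 libraries. Every line slopes up to wild type, and only in H2B do the groups overlap.

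By cluster, all 12 genes that fell belong to Hist1, 12 of its 39 tested genes, and 0 of 7 Hist2 and 0 of 3 Hist3 genes passed limma. Of these 4 and 3 had an unadjusted limma p under 0.05, and DESeq2 called 3 and 2 and edgeR 0 and 0. The clusters were not tested against each other. The median log2 change was -0.43 in Hist1, -0.28 in Hist2 and -0.42 in Hist3. The Hist2 sum was 764, 784 and 729 in PRDM15 KO replicates 1, 2 and 3, against 938, 919.6 and 909 in wild type replicates 1, 2 and 3, with no overlap (log2 change -0.28 ± 0.046, SD, n = 3 pairs). Its abundant genes were Hist2h2ac (358, 376 and 318 in PRDM15 KO, 445, 414 and 394 in wild type), Hist2h4 (254, 278 and 251 in PRDM15 KO, 301, 321 and 331 in wild type) and Hist2h3b (99.0, 83.6 and 85.9 in PRDM15 KO, 122, 120.2 and 112 in wild type). None of these overlapped between groups and none passed (limma adjusted p = 0.135 for Hist2h2ac, 0.116 for Hist2h4 and 0.0687 for Hist2h3b). Hist2h2be had 20.3, 18.3 and 33.2 in PRDM15 KO and 25.03, 27.4 and 35.1 in wild type, and Hist2h2ab had 22.9, 19.8 and 21.2 in PRDM15 KO and 32.3, 23.1 and 22.2 in wild type (limma adjusted p = 0.209 for Hist2h2be and 0.241 for Hist2h2ab).

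The Hist3 genes differed widely between replicates of a group. Hist3h2a had 4.16, 18.1 and 36.3 in PRDM15 KO replicates 1, 2 and 3, against 8.01, 21.8 and 40.9 in wild type replicates 1, 2 and 3. Hist3h2ba had 14.0, 53.8 and 32.5 in PRDM15 KO and 24.9, 67.7 and 41.8 in wild type, and Hist3h2bb-ps, which the symbol marks as a pseudogene, had 21.99, 50.2 and 35.0 in PRDM15 KO and 34.0, 58.3 and 47.7 in wild type. All 3 were lower in PRDM15 KO within each pair while the groups overlapped, and none passed (limma adjusted p = 0.214 for Hist3h2a, 0.129 for Hist3h2ba and 0.119 for Hist3h2bb-ps). Within Hist1, the 39 tested genes lie in 3 runs on chromosome 13, with more than 100000 bases from the last gene start of a run to the next (RefSeq). The untested testis genes Hist1h2aa and Hist1h2ba lie in a run of their own. The runs had median log2 changes of -0.42 (10 genes, 4 of them called), -0.46 (5 genes, 1 called) and -0.43 (24 genes, 7 called), so genes that fell came from each run.

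A pair of members behaved differently from the rest. Hist2h3c2, an H3 gene, had 7.72, 6.80 and 18.1 in PRDM15 KO replicates 1, 2 and 3, against 10.1, 10.4 and 12.2 in wild type replicates 1, 2 and 3. It was the gene not lower in all pairs, with differences of -0.34, -0.54 and 0.53, and its interval spanned 0 (log2 change -0.12, 95% interval -0.68 to 0.45; 0.09 without replicate 2). Hist1h2bq, an H2B gene chosen for mention after its values were seen, had 0.432, 0.728 and 1.09 in PRDM15 KO and 0.561, 0.777 and 25.8 in wild type. Its fitted log2 change of -1.28 rests on wild type replicate 3 alone, and 100% of the 50-base stretches of its annotated transcript also occur in another gene. At the low end, Hist2h2aa1 was the gene with the smallest mean that entered the test, with 2.36, 1.88 and 2.68 in PRDM15 KO and 3.21, 2.78 and 3.10 in wild type. Just outside was Hist1h1t, the H1 of the testis, with 0.632, 0.452 and 1.83 in PRDM15 KO and 0.534, 0.201 and 1.69 in wild type. The other members under a mean of 1 were Hist1h2br (6 to 17 reads per PRDM15 KO library and 14 to 25 per wild type library), the testis genes Hist1h2aa and Hist1h2ba, and Hist2h2aa2, each of these last with 4 reads or fewer in any library.

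Replicate 1 differed from the other replicates in a like way in both groups. The offset of replicate 1, its log2(value + 1) minus the mean of replicates 2 and 3, was below 0 in both groups for 40 of the 49 genes, above 0 in both for 8, and of opposite sign for 1, Hist1h4i. Its median was -0.41 in PRDM15 KO and -0.32 in wild type. Across the 49 genes the PRDM15 KO and wild type offsets correlated with Pearson's r of 0.80 and Spearman's rho of 0.91, as a description of genes that share their libraries. The offset reached -2.37 in PRDM15 KO and -1.78 in wild type for Hist3h2a.

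**Figure D4:**
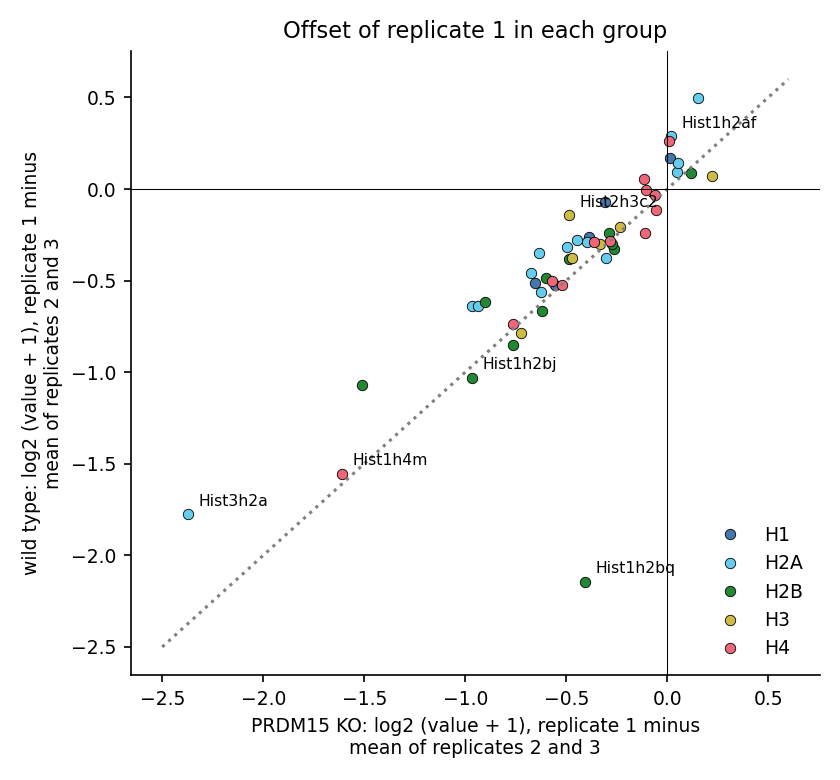
Offset of replicate 1 from the mean of replicates 2 and 3, in log2 (value + 1), in PRDM15 KO on the horizontal axis and in wild type on the vertical axis, for each of the 49 histone genes coloured by type. The dotted line marks equal offsets. Most genes lie near that line with negative offsets in both groups; Hist1h2bq, far under it, is the gene whose value is high in wild type replicate 3 alone.

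Some sequence features were shared by members and bear on how far single values can be read. Over the 49 genes a median of 45.8% of a transcript's 50-base stretches also occurred in another gene (GENCODE M21), so reads may have been split or dropped between copies, and single values are uncertain. All 13 genes with less than 25% shared were lower in PRDM15 KO, with a median log2 change of -0.37, and 2 of them were among the 12 that fell. The sums by type do not depend on how reads were split within a type. Whether counting used strand is not given in the sources used here, so overlapping and antisense transcripts cannot be told apart. H2A and H2B genes also lie head to head in 5 annotated pairs with 174 to 249 bases between their starts. The log2 changes within those pairs differed by 0.01 for Hist1h2an and Hist1h2bp, and by up to 0.34 for Hist1h2bf and Hist1h2ad.

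Genes of every type were lower together, so the stretch before the gene start was set side by side between types. RefSeq promoters (GRCm38.p6) were matched for 44 of the 49 genes, and their 250 upstream bases were searched on both strands. TATAAA was found in 23 (52.3%), against 3504 of 27025 promoters in the table. CCAAT was found in 35 (79.5%), against 34.5%, and the octamer ATTTGCAT, the site of POU factors such as Oct-1, in 9 (20.5%), against 1.6%. CCAAT was present in 5 of 5 H1, 14 of 14 H2A, 9 of 9 H2B, 4 of 5 H3 and 3 of 11 H4 promoters. The octamer was present in 6 of 14 H2A and 3 of 9 H2B promoters and in 0 of the other types. The 150 bases before the start of 1 gene of each type are shown, 5′ to 3′ on the gene's strand, with these motifs in capitals on either strand, to let the types be set side by side.
Hist1h1c: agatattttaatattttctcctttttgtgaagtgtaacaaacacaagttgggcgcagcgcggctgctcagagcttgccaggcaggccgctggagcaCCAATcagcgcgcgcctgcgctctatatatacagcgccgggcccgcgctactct
Hist1h2ab: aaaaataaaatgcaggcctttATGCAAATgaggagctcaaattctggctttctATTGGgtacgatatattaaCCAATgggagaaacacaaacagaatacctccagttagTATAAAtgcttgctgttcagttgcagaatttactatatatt
Hist1h2bb: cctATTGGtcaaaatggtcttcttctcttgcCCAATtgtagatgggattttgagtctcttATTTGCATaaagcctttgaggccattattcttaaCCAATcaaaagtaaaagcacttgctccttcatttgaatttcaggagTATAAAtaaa
Hist1h3c: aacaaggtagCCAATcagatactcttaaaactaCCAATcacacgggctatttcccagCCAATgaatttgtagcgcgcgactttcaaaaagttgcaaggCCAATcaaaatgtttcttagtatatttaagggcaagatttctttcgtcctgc
Hist1h4f: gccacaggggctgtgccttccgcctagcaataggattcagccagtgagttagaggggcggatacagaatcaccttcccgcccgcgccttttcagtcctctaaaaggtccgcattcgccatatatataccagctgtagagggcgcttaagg
In GRCm38.p6 they lie at chr13:23738657-23738806 on the plus strand, chr13:23750938-23751087 on the plus strand, chr13:23746584-23746733 on the plus strand, chr13:23745522-23745671 on the minus strand and chr13:23551669-23551818 on the minus strand. In these windows the H2A and H2B promoters hold all 3 motifs, the H3 promoter holds CCAAT 4 times, the H1 promoter holds it once, and the H4 promoter holds none in the 150 bases shown. Hist1h4f is still among the promoters counted with TATAAA, which was found in its 250 searched bases outside those shown. These are matches of letters, not measured sites.

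Among genes that make and process histone transcripts, the values centred near the background. Of 26 genes for histone mRNA synthesis and 3′ end processing, 0 fell and 0 rose by limma or edgeR. At an unadjusted limma p under 0.05 there were 6, 2 of them lower, where 2213 of all 10533 tested genes passed in either direction. DESeq2 called 3 of the 26, 1 of them lower, against 7.01% of all tested genes in either direction. The median log2 change was -0.03, as over all genes. Slbp, the stem-loop binding protein, had 187, 199 and 203 in PRDM15 KO replicates 1, 2 and 3, against 199, 225 and 229.7 in wild type replicates 1, 2 and 3. It was a little lower in each pair, within overlapping groups (log2 change -0.15, SE 0.050, limma adjusted p = 0.1999). Npat, the cyclin E-CDK2 substrate that activates histone transcription, had a log2 change of 0.11, and Casp8ap2, its partner protein in histone locus bodies, one of 0.04 (limma adjusted p = 0.371 for Npat and 0.665 for Casp8ap2). Lsm10 and Lsm11, parts of the U7 particle that guides the cut, had log2 changes of -0.02 and -0.18, the sign of Lsm10 turning under several settings. Cpsf3, the endonuclease that makes the cut, had 154, 149.5 and 145 in PRDM15 KO and 199, 169 and 177 in wild type. It did not overlap between groups and did not pass limma (log2 change -0.27, SE 0.058, limma adjusted p = 0.116).

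Histone variants are made outside S phase too, mostly from polyadenylated transcripts. Of the 9 with a mean of at least 1, 0 passed limma or edgeR. At an unadjusted limma p under 0.05 there were 7, all lower, against 13.6% of all tested genes that were lower at that p. DESeq2 called 3 of the 9, all lower, against 3.99% of all tested genes. Of the 9, 8 were lower in all 3 pairs, against 29.9% of all tested genes, and the median log2 change was -0.19. H3f3a, which encodes H3.3, had 297, 372 and 432 in PRDM15 KO replicates 1, 2 and 3, against 393, 528 and 528 in wild type replicates 1, 2 and 3. It had a log2 change of -0.40 (SE 0.062, limma adjusted p = 0.0670), and H3f3b, the second H3.3 gene, one of -0.22 (limma adjusted p = 0.197). H2afz and H2afx, the H2A.Z and H2A.X genes, each had a log2 change of -0.19 (limma adjusted p = 0.178 for H2afz and 0.222 for H2afx). H1f0 was not matched in the table.

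Chaperones that carry new histones to DNA lay on both sides of 0. Of 20, 10 had a negative log2 change, 0 fell and 0 rose by limma or edgeR, and the median was 0.01. At an unadjusted limma p under 0.05 there were 2, none of them lower, where 2213 of all 10533 tested genes passed in either direction. DESeq2 called 1 of the 20, not lower, against 7.01% of all tested genes in either direction. Nasp, which holds H3 and H4 before deposition, had a log2 change of 0.16, Asf1b one of -0.09 and Chaf1a, of the chromatin assembly complex CAF-1, one of 0.02 (limma adjusted p = 0.177 for Nasp, 0.495 for Asf1b and 0.877 for Chaf1a). Of 35 DNA replication genes, 1 fell and 0 rose by limma, where 0.741% of all tested genes fell, and the median was -0.00. At an unadjusted limma p under 0.05 there were 7, 4 of them lower, against 13.6% of all tested genes lower at that p. DESeq2 called 2 of the 35 lower, against 3.99% of all tested genes. The gene that fell by limma was Tk1, thymidine kinase. Its values were 26.2, 33.4 and 16.9 in PRDM15 KO replicates 1, 2 and 3. In wild type replicates 1, 2 and 3 they were 60.8, 64.7 and 41.5. Its groups did not overlap (log2 change -1.12, SE 0.083, limma adjusted p = 0.0255), and edgeR and DESeq2 called it too; without replicate 2 or 3 limma called no gene at all. The sliding clamp gene Pcna and the helicase gene Mcm2 had log2 changes of -0.15 and 0.09 (limma adjusted p = 0.235 for Pcna and 0.327 for Mcm2). Summed over the 35 genes, replication transcripts were at 7702, 7702 and 8075 in PRDM15 KO replicates 1, 2 and 3, against 7691, 7962 and 8017 in wild type replicates 1, 2 and 3, a range in which the groups overlap.

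Among other RNAs made without a stable poly(A) tail, 10 of 11 had a negative log2 change, and Malat1 had a positive one. Of 11 measured, 0 passed limma or edgeR, and 4 had an unadjusted limma p under 0.05. Of these 3 were lower, against 13.6% of all tested genes that were lower at that p. DESeq2 called 3, lower for Terc and Rmrp and higher for Malat1, against 7.01% of all tested genes in either direction. Malat1, a nuclear long noncoding RNA, was higher in each pair (0.08, 0.32 and 0.24 in pairs 1, 2 and 3; log2 change 0.22, SE 0.079, limma adjusted p = 0.221). Of the 11, 7 were lower in all 3 pairs, against 29.9% of all tested genes. The median log2 change was -0.27, with -0.55, -0.27 and -0.10 in pairs 1, 2 and 3. Rn7sk, the RNA that holds the elongation factor P-TEFb inactive, had 13424, 10181 and 10537 in PRDM15 KO replicates 1, 2 and 3, against 22564, 13045 and 11274 in wild type replicates 1, 2 and 3. Wild type replicate 1 stood well above all others (log2 change -0.40, SE 0.16, limma adjusted p = 0.239). Rpph1 and Rmrp, the RNAs of RNase P and RNase MRP, had log2 changes of -0.43 and -0.40 (limma adjusted p = 0.230 for Rpph1 and 0.171 for Rmrp). The difference was -0.80, -0.34 and -0.14 for Rpph1 and -0.63, -0.43 and -0.13 for Rmrp in pairs 1, 2 and 3, smallest in pair 3. The part that recovery of RNAs without a tail has in the histone result was not tested.

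**Figure D5:**
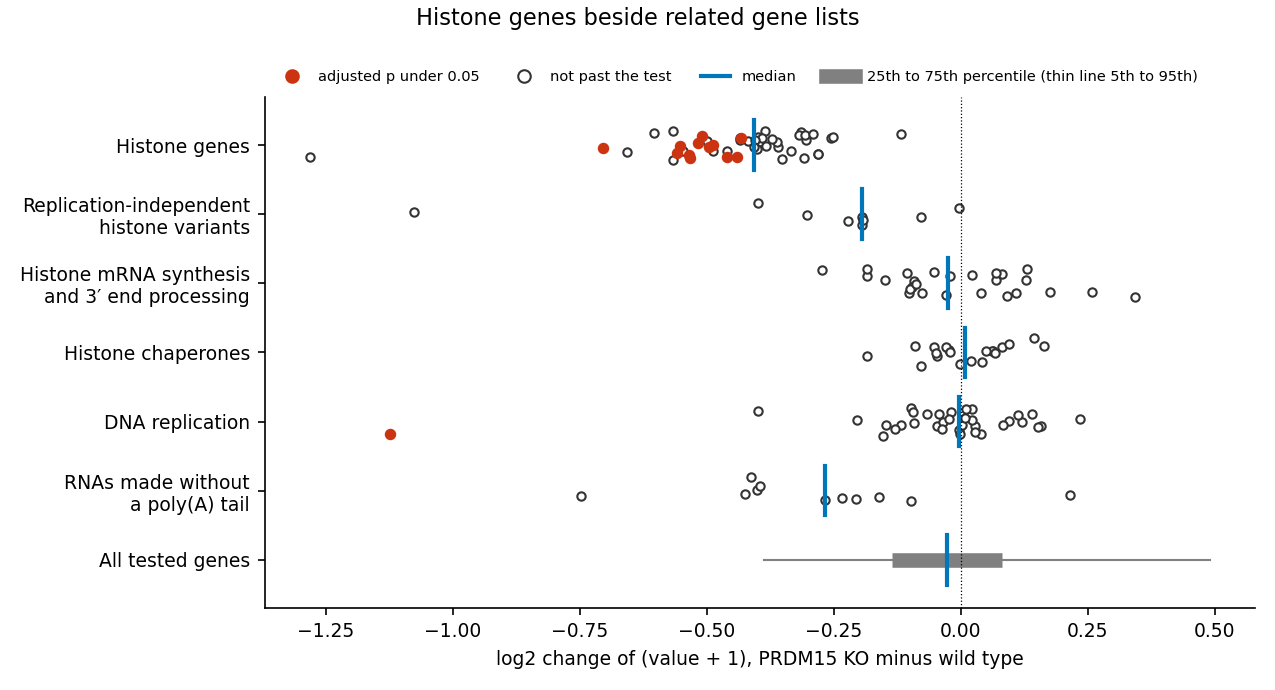
Log2 change of (value + 1), PRDM15 KO minus wild type, on the horizontal axis, for each gene (point) of the histone family and of related lists, with medians as blue bars and genes past the limma test filled. The grey bar gives the 25th to 75th percentile of all tested genes and the thin line the 5th to 95th. The histone genes centre at -0.41, against -0.03 for all tested genes, and Tk1 is the filled point of the replication list.

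Among the markers of other cells, the sum of the 15 myeloid genes was high in PRDM15 KO replicates 2 and 3, and Lyz2 made up most of it there. Not every gene followed: Ctss in PRDM15 KO replicate 3 was close to replicate 1 of both groups. Lyz2 had 10.7, 1471 and 820.3 in PRDM15 KO replicates 1, 2 and 3, against 20.4, 124 and 86.0 in wild type replicates 1, 2 and 3, and Ctss had 190.2, 344 and 197 in PRDM15 KO and 184, 90.3 and 98.7 in wild type. Their list median was -0.55, 2.74 and 1.91 in pairs 1, 2 and 3, and 0 of 15 passed limma or edgeR. At an unadjusted limma p under 0.05 there were 5, all higher, where 2213 of all 10533 tested genes passed in either direction. DESeq2 called 2 of the 15, all higher, against 7.01% of all tested genes in either direction. T cell markers (5 measured) summed to at most 10.2 in PRDM15 KO and 0.88 in wild type, erythroid markers to at most 0.43 in PRDM15 KO and 1.15 in wild type, and neutrophil markers to at most 0.78 in PRDM15 KO and 0.20 in wild type. Stromal markers summed to 55.9 to 101.5 in PRDM15 KO and 51.4 to 62.4 in wild type. Nearly all of that sum was Pecam1, as the collagen genes Col1a1, Col1a2 and Col3a1 each averaged under 1. It therefore says little about stromal cells. None of these lists had a marker at 0 in all libraries. Without PRDM15 KO replicates 2 and 3, and ignoring pairs, the histone median was -0.74 against -0.11 for all genes. That sets 1 PRDM15 KO library against 3 wild type libraries, with no spread of its own in PRDM15 KO, and also holds the offset of replicate 1, so it is given as a value with no test.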

How the data were processed

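RNA-seq values of 6 libraries were used, 3 labelled PRDM15 KO and 3 labelled wild type, from directional libraries of total RNA made with a column kit, per the labels' protocols. Tools listed in the submitters' processing notes are edgeR, HTSeq, STAR 2.4.2a and CASAVA, with mm9 as the build and no roles. The strand setting and the annotation of the counting were not found in the labels. The deposited signal is named FPKM by the authors, but 100% of its values were whole multiples of 1 step per library (tolerance 0.01 reads), so it is a read count per gene scaled by an effective library size (0.970 to 1.04 times the 28852951 to 47255421 reads per library) and was not divided by length.

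Values were analysed as log2(value + 1) with limma 3.58.1 in R 4.3.3 (trended prior, two-sided, Benjamini-Hochberg over the 10533 genes with a mean of at least 1, threshold 0.05), with the replicate number as a block. Log2 changes on this scale understate those of low genes. The labels do not say that a number marks a shared mouse. The numbers were taken as pairs because the comparison was set by matching replicate number. Same-numbered libraries had deviations from their group means that correlated at 0.73, 0.73 and 0.84 across genes. Other combinations had -0.61 to -0.14. Deviations within a group sum to 0, so those negative values partly follow from the positive ones and are not separate evidence. Every library differed from every other beyond counting noise (chi-square over degrees of freedom of at least 62.6). Alternatives were the fit without the block, other pseudocounts, filters and scalings, edgeR 4.0.16 and DESeq2 1.42.0 on the recovered reads, and leaving out libraries; edgeR and DESeq2 without the block and PRDM15 KO replicate 1 alone were added after the data were seen. The limma, edgeR and DESeq2 fits with the block were run on simulated data, and the other settings were not. Tables and figures used matplotlib 3.10.9 under Python 3.11.15.

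The members and the 11 gene lists (152 entries, 9 not matched) were chosen with earlier results of these data known, so no count over a list is independent support. Named genes are the members past the paired test, the 3 with the highest mean of each type, all Hist2 and Hist3 members tested, those next to the mean of 1, list members past the test and a set of pathway genes. Histone and stem-loop features come from GENCODE M21 and RefSeq tables of GRCm38, another build than the authors', so no coordinates of counted features are given.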

Additional observations from a re-analysis of the deposited data

How the results depend on the processing

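Counts of genes called over all genes, and of histone genes among them, varied with the setting while the size of the difference did so less. Without the replicate block limma called 1 gene and 0 histone genes, with no filter 5 and 0 (47 histone genes at an unadjusted p under 0.05), and with a mean of at least 10 it called 235 and 29. With the replicate block, edgeR called 39 and 3 and DESeq2 738 and 41; edgeR without it called 0 and 0 (24 histone genes at an unadjusted p under 0.05). Leaving out replicate 1 of both groups gave 840 and 35, and leaving out replicate 2 or replicate 3 gave 0 and 0. PRDM15 KO replicate 1 against the 3 wild type libraries gave 0 and 0 (26 histone genes at an unadjusted p under 0.05), where the lone library was assumed to vary like wild type, which alone supplied the spread, so these counts say nothing about stability; the histone median was -0.74, and within pair 1 the median was -0.48. The summed H1 value changed by -0.25 after quantile normalization and -0.49 within pair 1, and H2A by -0.52 within pair 1. H2B changed by -0.41 with equal totals and -0.42 after quantile normalization, and H4 by -0.32 and -0.31. Of the 49 histone genes Hist2h3c2 turned its sign: its log2 change was -0.44 to 0.094 when a number was left out, and 0.019 with edgeR and 0.020 with DESeq2 without the block. Lsm10 was at 0.028 with equal totals, 0.00010 with DESeq2 and the block, 0.0056 with edgeR and 0.0062 with DESeq2 without it, and -0.079 to 0.024 when a number was left out. Chaf1a was at -0.036 to 0.059 when a number was left out. With PRDM15 KO replicate 1 alone, Chaf1a was at -0.30, Asf1b at 0.18, Mcm2 at -0.0052 and Lyz2 at -2.40. The histone median lay between -0.74 and -0.36 under every setting run. Histone counts and medians here are over the histone genes that each fit kept. The filter at a mean of 10 left out Hist2h2aa1 and Hist1h2bq, and the fit with no filter took in members under a mean of 1. The cause of these shifts was not tested. Standard errors and intervals come from limma over the 3 pairs, and 3 libraries a group limit what can pass.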
